A study of Mus musculus with 21 samples.

Results

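Livers of mice that lack Ezh1 were compared with wild type livers after repeated dosing with carbon tetrachloride (CCl4). The comparison used 2 of the 12 RNA-seq columns of the study, each column being 1 group of mice, and 10833 of 22520 genes, those of at least 1 FPKM in at least 1 of the 2 columns. FPKM counts sequenced fragments per kilobase of a gene, relative to the mapped total. A difference below is that of log2(FPKM+1), E1KO minus WT, both with CCl4, and a gene is called 2-fold higher or lower where the difference is at least 1 in size. The sample titles name 3 replicates a group (2 at 8 months), but the deposited table has 1 value for each, so no value has an error between animals and the pair has no test.

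WT mice were Ezh2fl/fl without Cre, E1KO mice Ezh1-/-, E2KO mice Ezh2fl/flAlb-Cre, in which an albumin promoter drives the recombinase in hepatocytes, and DKO mice Ezh1-/-Ezh2fl/flAlb-Cre. The Ezh1 deletion is in the germ line, so every cell of an E1KO liver lacks it, macrophages and stellate cells included, while the E2KO deletion is aimed at hepatocytes. The labels do not say whether E1KO mice also carry floxed Ezh2. All mice had a mixed background (129SV::FVB/N::C57BL/6). CCl4 was injected into the abdomen at 2 ml/kg, 2 times a week for 2 weeks from 3 months of age, and livers were taken 24 h after the last dose. The 4 genotypes were also taken untreated at 2 months and at 8 months. No untreated group at 3 months is among the samples analysed here, so age and CCl4 cannot be told apart when the treated livers are set beside the untreated ones.

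PRC2 is the Polycomb complex that methylates lysine 27 of histone H3 and so helps keep genes silent, and either Ezh1 or Ezh2 serves as its methyltransferase. Ezh2 prevails in dividing cells and Ezh1 in resting ones. CCl4 is turned into a reactive radical by cytochrome P450 enzymes, above all Cyp2e1, in the hepatocytes around the central vein, which die. Kupffer cells (the resident macrophages), monocytes from blood and stellate cells then respond, the stellate cells by making matrix, while surviving hepatocytes divide.

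The targeted gene followed the labels. Ezh1 stood at 2.05 FPKM in WT, 0.20 in E1KO, 1.96 in E2KO and 0.27 in DKO with CCl4, so that E1KO held 9.76% of the WT level. Ezh2 stood at 5.68 FPKM in WT, 4.68 in E1KO, 3.92 in E2KO and 2.51 in DKO. For Ezh2 the E1KO value was below WT by 0.23 on the log2 scale, inside the 5th to 95th percentile of all compared genes (-0.47 to 0.58). Of 10 PRC2 subunit genes compared, 8 were below WT, among them Suz12 (8.45 against 11.2 FPKM), the partner that EZH1 and EZH2 both need, and Ezh1 alone passed 2-fold.

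E1KO was 2-fold higher than WT in 149 genes (1.38% of those compared) and 2-fold lower in 101 (0.932%). Small RNA genes, mostly snoRNAs and microRNA precursors, made up 54 of the higher and 39 of the lower genes, and 46 and 26 of these were listed at 0 in 1 of the columns. The 10 largest differences in each direction were all of this kind, such as Snord37, listed at 0 in WT and 1379 in E1KO, and Snord42b, 706 in WT and listed at 0 in E1KO. Genes shorter than a sequenced fragment are poorly measured by FPKM, and Snord37 was also between 1379 and 1634 in the 3 other genotypes than WT. Without small RNA genes, a step added after the values were seen, 95 genes were higher (0.889%) and 62 lower (0.58%). The column was not raised as a whole: 4546 genes (42%) were above WT, 6237 (57.6%) below, and the median difference was -0.04.

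Immune genes as listed stood above WT in most cases, matrix genes in most cases by a smaller margin, and injury genes as a split group. Of 171 immune genes compared, 148 were above WT, 27 of them 2-fold higher and 1 lower, with a median of 0.45. Of the 171, 12 passed the filter only through the E1KO column and 1 only through the WT column, which fixes their side, as it does for 8 and 3 of the matrix genes that follow. Of 115 matrix genes 91 were above WT, 4 of them 2-fold higher and none lower, with a median of 0.25. Of 121 injury genes 76 were above WT, 8 of them 2-fold higher and 3 lower, with a median of 0.18. Each share above WT is to be read beside the 42% of all genes, and each share below WT beside the 57.6%. Cell cycle genes lay the other way, with 63 of 72 below WT and a median of -0.51, and so did hepatocyte function genes, with 120 of 172 below and a median of -0.21.

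**Figure D1:**
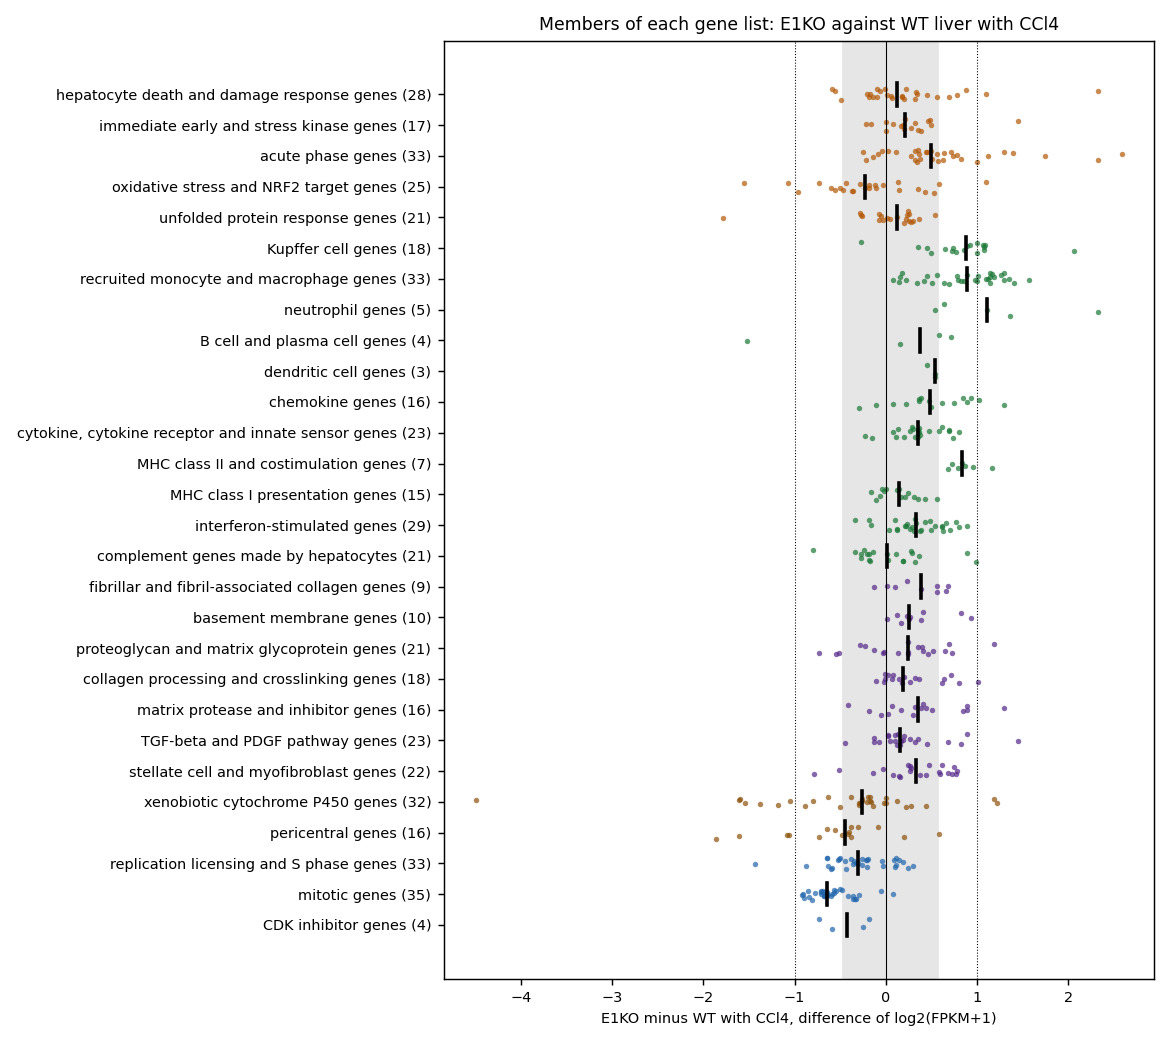
Difference of log2(FPKM+1), E1KO minus WT with CCl4 (horizontal axis), for each compared member of the gene lists (rows, number of members in brackets). Points are genes, black bars list medians, the grey band the 5th to 95th percentile of all compared genes (-0.47 to 0.58), and dotted lines the 2-fold limits; the macrophage rows lie right of zero, the mitotic row left of it.

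Macrophage genes formed the clearest group. All 33 genes listed for recruited monocytes and macrophages were above WT, 15 of them 2-fold higher, with a median of 0.89, and 17 of 18 Kupffer cell genes were above, 6 of them 2-fold higher, with a median of 0.87. The exception was C6, a complement gene, at 51.1 against 62.1 FPKM. Itgam (0.68 FPKM in WT, 2.37 in E1KO) and Itgax (0.49, 1.03) passed the filter only through the E1KO column. Their side was thus fixed, and both are among the 33 recruited cell genes, Itgam also among the 15. In whole liver, more cells of a type and more RNA per cell cannot be told apart.

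Marco, a scavenger receptor of tissue macrophages, stood at 7.64 FPKM in WT, 35.1 in E1KO, 11.5 in E2KO and 6.69 in DKO, a 4.60-fold excess of E1KO over WT. Lyz2, lysozyme of myeloid cells, stood at 87.7 FPKM in WT, 234 in E1KO, 132 in E2KO and 201 in DKO. Ms4a7, a membrane protein of macrophages, stood at 1.38 FPKM in WT, 6.06 in E1KO, 2.85 in E2KO and 4.97 in DKO. For Marco the E1KO column stood apart from the other 3, while for Lyz2 and Ms4a7 DKO came close to it. Lyz1 and Lyz2 are near-identical in sequence, as are several Fc receptor genes, so the split of reads between such pairs is uncertain.

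The complement genes C1qa, C1qb and C1qc, made in the liver by macrophages, were higher by 1.07, 1.08 and 1.08, and Csf1r, the growth factor receptor of the lineage, by 1.00. Clec4f, which marks Kupffer cells, stood at 26.0 FPKM in WT and 41.3 in E1KO, and Timd4, a marker of long-resident Kupffer cells, at 1.78 and 4.03. Ccr2, the receptor by which monocytes leave the marrow for injured tissue, stood at 3.32 FPKM in WT, 8.23 in E1KO, 4.39 in E2KO and 3.35 in DKO. Markers of resident and of incoming cells were thus both above WT. Gpnmb and Trem2, of lipid-laden and scar-associated macrophages, were higher by 0.89 and 0.79, and Sfpi1, the gene of the myeloid transcription factor PU.1, by 1.08 (11.7 against 5.01 FPKM).

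Summed over its list, the Kupffer cell level was 482 FPKM in WT and 894 in E1KO, 1.86 times as much, and the recruited cell level 1426 and 2251 FPKM, 1.58 times as much. E2KO held 572 and 1431 FPKM and DKO 727 and 2415. Spp1, which is also listed for bile duct and progenitor cells, made up 398 FPKM of the recruited cell sum in WT and 644 in E1KO. Among the 4 treated columns E1KO was highest in 14 of 18 Kupffer cell genes and 21 of 33 recruited cell genes, where 22.4% of all genes had E1KO highest. Set against E2KO in place of WT, 33 of 33 recruited cell genes and 17 of 18 Kupffer cell genes were above, beside 43.4% of all genes. The 2 references share the E1KO column, so they are not separate evidence. Red cell genes, a rough measure of blood left in the tissue, summed to 84.0 FPKM in E1KO and 87.5 in WT, and the part of such blood was not tested. Milk protein genes, which liver does not use, summed to 25.2 FPKM in E1KO and 6.12 in WT, and the part of that RNA in these results was not tested.

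**Figure D2:**
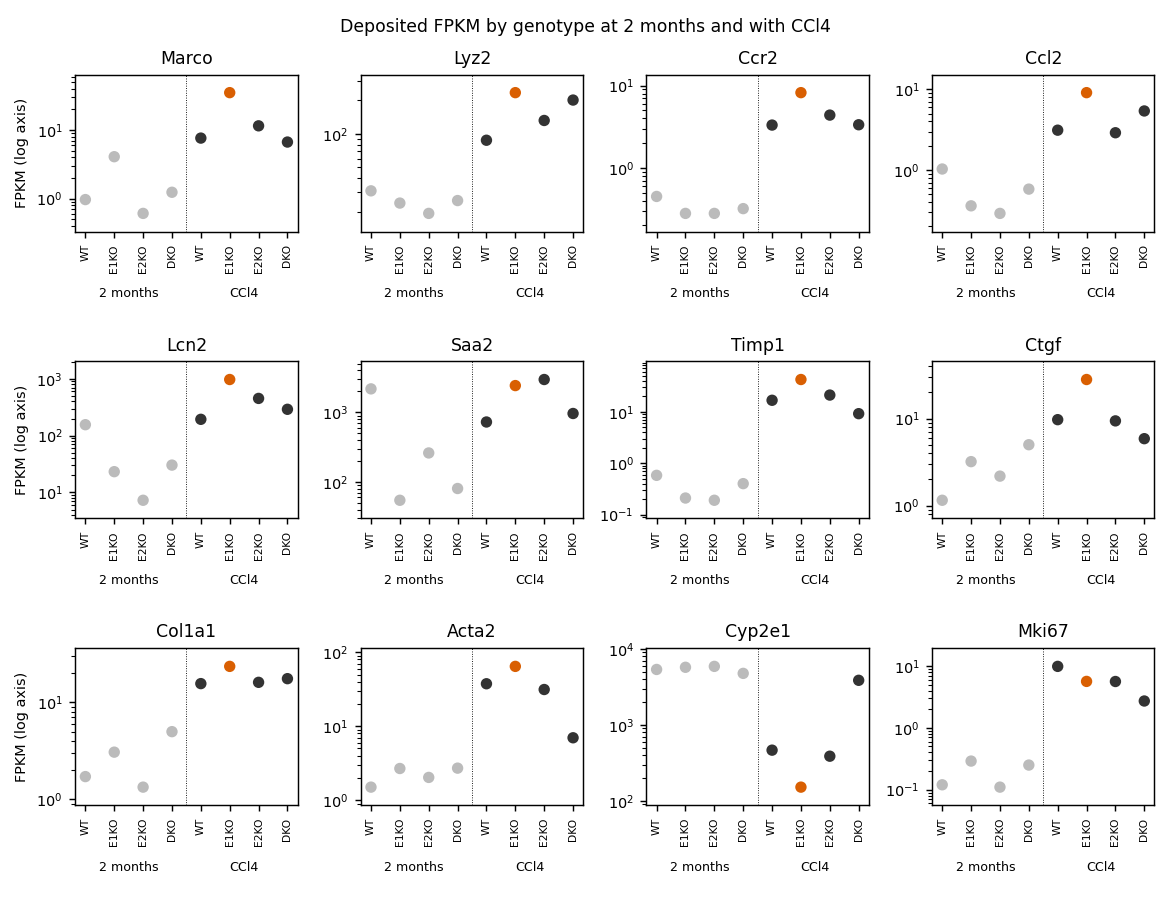
FPKM (log axis) of 12 genes in the 4 genotypes at 2 months (grey) and with CCl4 (black, E1KO in orange). Points are the single deposited value of a group; with CCl4 E1KO is highest of the 4 for Marco, Lyz2, Ccr2, Ccl2, Lcn2, Timp1, Ctgf, Col1a1 and Acta2, and lowest for Cyp2e1.

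Most other immune lists were above WT with smaller medians, and lymphocyte genes were near the limit of the filter. Of 16 chemokine genes 14 were above WT. Ccl2, which draws monocytes through Ccr2, stood at 3.12 FPKM in WT, 9.11 in E1KO, 2.90 in E2KO and 5.40 in DKO. Its neighbour in function Ccl7 stood at 1.14 and 3.33 FPKM in WT and E1KO, and Ccl6 at 11.3 and 22.5. The neutrophil chemokine Cxcl1 was at 9.64 and 10.3 FPKM, a difference of 0.08. The monocyte chemokines thus differed between the columns and Cxcl1 hardly did, while in DKO Cxcl1 was at 52.9 FPKM.

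Of 23 genes of cytokines, their receptors and innate sensors, 21 were above WT and none passed 2-fold. The 3 largest differences were those of Casp1, the caspase that matures IL-1 (0.80), Tlr7 (0.74) and Pycard, the inflammasome adaptor (0.69). Tlr7 (0.65 FPKM in WT, 1.75 in E1KO) passed the filter only through the E1KO column, which fixes its side. The inflammatory cytokines Il1b, Tnf and Il6 did not reach 1 FPKM in either column. Neutrophil genes were few: 5 of 13 passed the filter, Csf3r (0.38 FPKM in WT and 1.00 in E1KO) only through the E1KO column. The 5 were above WT with a median of 1.11, S100a8 at 7.22 FPKM in WT and 16.7 in E1KO, S100a9 at 5.73 and 16.3. The highest of them is Lcn2, which hepatocytes also make, and the neutrophil sum (209 and 1011 FPKM) is nearly all Lcn2.

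All 7 genes of MHC class II presentation and costimulation were above WT, with a median of 0.83, led by H2-DMa (3.86 and 9.90 FPKM). H2-Aa stood at 22.9 FPKM in WT, 42.6 in E1KO, 44.5 in E2KO and 80.0 in DKO, and Cd74, the invariant chain, at 36.3, 65.4, 67.8 and 125. E2KO matched E1KO here, and WT was the lowest of the 4 columns for both genes. Interferon-stimulated genes were above WT in 26 of 29 cases without passing 2-fold, with a median of 0.33, among them Cxcl9 (0.89), Rsad2 (0.80) and Gbp2 (0.76). MHC class I genes were above WT in 10 of 15 cases (median 0.15), with Tap1 the largest difference (0.56). Complement genes listed as made by hepatocytes were above in 11 of 21 (median 0.02). Among the listed 21, Mbl2 differed by -0.80 and Cfp by 0.99. Cfp, properdin, is made mainly by leukocytes, so its difference is not to be read as one of hepatocytes.

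Of 23 T cell and NK cell genes in the table only Ccl5 and Thy1 passed the filter. Thy1 (0.66 FPKM in WT, 1.16 in E1KO) did so only through the E1KO column. All 23 together summed to 5.59 FPKM in WT and 10.3 in E1KO. Of 12 B cell and plasma cell genes 4 passed, with Cd79b at 1.01 and 2.30 FPKM and the immunoglobulin joining chain gene Igj at 3.73 and 0.65. Of the 3 dendritic cell genes that passed, Batf3 and Itgax did so only through the E1KO column, and Irf8 stood at 2.91 FPKM in WT and 4.68 in E1KO.

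**Figure D3:**
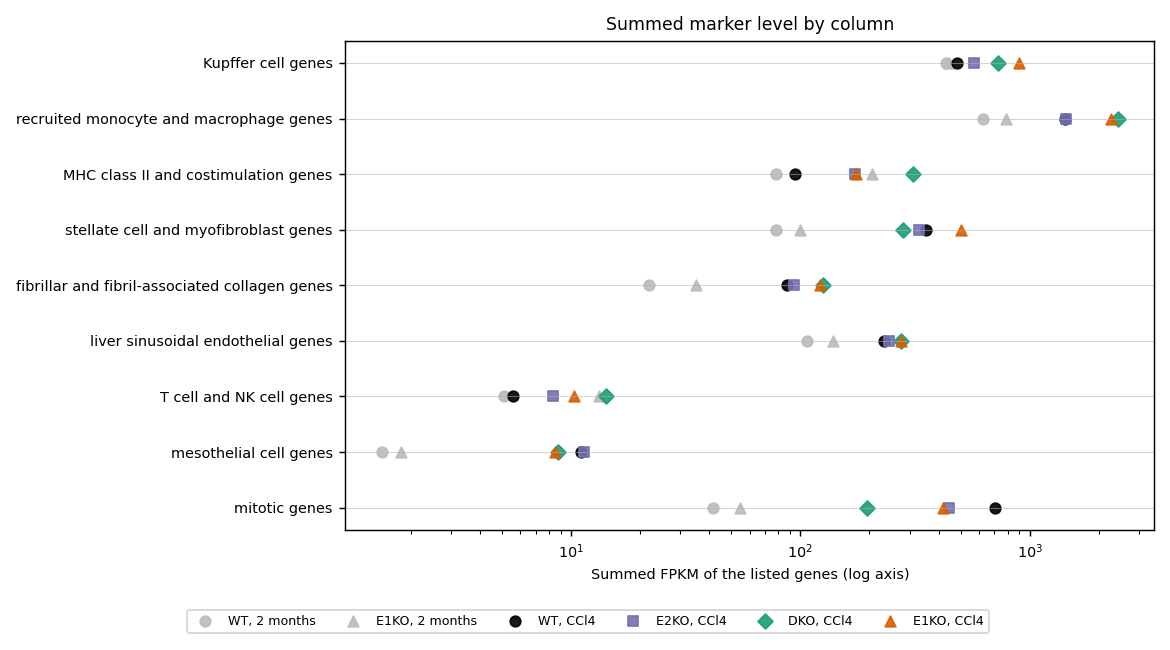
Summed FPKM (log axis) of each list of marker genes, 1 row a list, in WT and E1KO at 2 months and in the 4 genotypes with CCl4. Points are single columns; E1KO with CCl4 (orange) is right of WT with CCl4 (black) in the macrophage, stellate cell and collagen rows and left of it in the mitotic row.

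The injury lists did not point one way. Acute phase genes, which the liver turns on in response to IL-6 and IL-1, were the main group above WT: 28 of 33, 6 of them 2-fold higher and none lower, with a median of 0.49. Orm2, an orosomucoid, stood at 24.3 FPKM in WT, 151 in E1KO, 108 in E2KO and 221 in DKO. Lcn2, lipocalin that binds bacterial iron carriers, stood at 194 FPKM in WT, 972 in E1KO, 452 in E2KO and 291 in DKO. Saa2, serum amyloid A, stood at 726 FPKM in WT, 2426 in E1KO, 2965 in E2KO and 962 in DKO. E1KO was the highest column for Lcn2 only. WT was lowest for all 3 of these genes.

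Saa1, Saa2 and Saa3 share sequence, as do Orm1, Orm2 and Orm3, so reads may have been split between them. Of the other acute phase genes, Fgl1 was higher by 0.99, Itih3 by 0.83 and Hpx, the haem carrier hemopexin, by 0.71. Not all members followed: Serpina3n differed by -0.25, Saa4 by -0.22 and Socs3, the feedback inhibitor of IL-6 signalling, by -0.14.

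The promoters of the genes with the largest differences in the acute phase and macrophage groups are shown because most members of each group lay above WT. C/EBP proteins drive the acute phase response and PU.1 the macrophage genes. The sequences are from RefSeq on GRCm38.p6, the 250 bases before the gene's start, read along the gene. The 4 are examples that hold a match. Capitals mark the C/EBP motif TTGCNNAA in the first 3 and the PU.1 motif GAGGAAG in the last.
Lcn2 (chr2:32387740-32387989, minus strand): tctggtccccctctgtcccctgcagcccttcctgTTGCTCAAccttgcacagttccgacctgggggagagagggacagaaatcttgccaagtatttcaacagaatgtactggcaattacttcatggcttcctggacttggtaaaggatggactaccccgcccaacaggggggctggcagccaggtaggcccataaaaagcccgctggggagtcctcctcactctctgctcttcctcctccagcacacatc
Saa2 (chr7:46751583-46751832, plus strand): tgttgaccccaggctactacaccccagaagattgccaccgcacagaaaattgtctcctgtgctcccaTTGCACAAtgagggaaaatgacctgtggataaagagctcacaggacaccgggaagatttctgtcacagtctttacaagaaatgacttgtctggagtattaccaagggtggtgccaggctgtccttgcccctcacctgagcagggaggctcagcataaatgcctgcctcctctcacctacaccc
Orm2 (chr4:63362199-63362448, plus strand): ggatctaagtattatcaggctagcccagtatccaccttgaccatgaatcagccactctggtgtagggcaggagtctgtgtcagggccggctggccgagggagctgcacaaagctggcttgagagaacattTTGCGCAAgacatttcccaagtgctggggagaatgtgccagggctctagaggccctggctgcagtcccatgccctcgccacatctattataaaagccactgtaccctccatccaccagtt
Marco (chr1:120505025-120505274, minus strand): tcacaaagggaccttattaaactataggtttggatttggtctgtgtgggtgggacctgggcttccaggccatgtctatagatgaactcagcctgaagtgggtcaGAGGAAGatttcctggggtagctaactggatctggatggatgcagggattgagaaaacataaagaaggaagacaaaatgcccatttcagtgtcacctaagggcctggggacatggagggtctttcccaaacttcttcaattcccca

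In such windows, read on both strands, the C/EBP motif was found in 13 of the 26 acute phase genes with a RefSeq promoter (50%), beside 9.55% of all 27025 promoters. The STAT motif TTCNNNGAA was found in 8 of 26 (30.8%, beside 7.18%). The PU.1 motif was found in 10 of 27 recruited cell genes with a promoter (37.0%), beside 10.4% of all. Marco is on the Kupffer cell list and not among these, and no share was taken for that list. A match is a string of letters and not a bound site, and no binding was measured.

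Genes of hepatocyte death and damage, Lcn2 again among them, were above WT in 17 of 28 cases, with a median of 0.12. Hmox1, haem oxygenase, stood at 18.1 FPKM in WT, 39.8 in E1KO, 20.7 in E2KO and 35.9 in DKO, and Gadd45g at 3.13 FPKM in WT and 6.61 in E1KO. Hmox1 and Lgals3 (0.78) are expressed by macrophages too. Below WT without passing 2-fold were Cdkn1a, the cell cycle inhibitor p21, at 54.2 FPKM in WT and 35.7 in E1KO, Ccng1 at 27.1 and 18.0, and Phlda3 at 9.44 and 6.42. The stress hormone Gdf15 was at 8.06 FPKM in WT and 7.50 in E1KO, and metallothionein Mt1 at 296 and 369. The list thus held members well to either side of WT.

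Immediate early genes were above WT in 14 of 17 cases (median 0.21) but Ctgf alone passed 2-fold, followed by Dusp1 and Ier3 (both 0.49). NRF2 target genes, the response to oxidants, were below WT in 18 of 25 cases (median -0.23). Gsta3, a glutathione transferase, stood at 820 FPKM in WT, 279 in E1KO, 482 in E2KO and 834 in DKO, and Gsta1, which shares sequence with Gsta2, at 22.01 in WT and 9.93 in E1KO. Against E2KO the NRF2 list turned, with 7 of 25 below, beside 56.1% of all genes. Of 21 unfolded protein response genes 13 were above WT (median 0.12), Sdf2l1 by 0.54 and Calr by 0.37, while Asns, asparagine synthetase, was at 29.2 FPKM in WT and 7.77 in E1KO. Asns was lower in E1KO than in WT at 2 months too, at 0.58 against 3.94 FPKM.

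Matrix genes were above WT by amounts mostly below 2-fold. Of 9 fibrillar and fibril-associated collagen genes 8 were above WT, with a median of 0.39. Col1a1 stood at 15.6 FPKM in WT, 23.4 in E1KO, 16.1 in E2KO and 17.5 in DKO, and Col1a2 at 16.6, 26.6, 18.6 and 22.3. These genes make the 2 chains of type I collagen, the bulk of scar, and E1KO was the highest of the 4 columns for both. Col3a1 stood at 29.1 FPKM in WT, 38.4 in E1KO, 32.7 in E2KO and 47.7 in DKO. Col5a1 differed by 0.68. Col6a2 was the 1 collagen of this list below WT, by 0.13.

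All 10 basement membrane genes were above WT, with a median of 0.26. Col4a1 stood at 11.8 FPKM in WT, 23.5 in E1KO, 11.6 in E2KO and 10.4 in DKO, and its partner Col4a2 at 8.66, 16.1, 8.91 and 9.42. Here the E1KO column stood alone and the other 3 lay close together. Hspg2, perlecan, followed with a difference of 0.41.

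Of 18 genes that process and crosslink collagen 14 were above WT. Serpinh1, the collagen chaperone HSP47, stood at 30.1 FPKM in WT, 61.7 in E1KO, 28.7 in E2KO and 23.8 in DKO. The crosslinking enzymes Loxl2 and Lox were higher by 0.80 and 0.71. Lox (0.97 FPKM in WT, 2.22 in E1KO) passed the filter only through the E1KO column. Of 16 matrix proteases and inhibitors 13 were above WT, led by Timp1, an inhibitor of matrix proteases, at 16.7 FPKM in WT, 42.4 in E1KO, 21.1 in E2KO and 9.18 in DKO. Adam8, a membrane-bound protease, was higher by 0.89. The matrix proteases Mmp2 (1.23 and 0.96 FPKM) and Mmp13 (below 1 FPKM in both columns) were not above the rest.

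Proteoglycans and glycoproteins were split, with 13 of 21 above WT. Tnc, tenascin C of provisional matrix, stood at 1.56 FPKM in WT, 4.84 in E1KO, 1.21 in E2KO and 0.64 in DKO. Spp1, osteopontin, stood at 398 FPKM in WT, 644 in E1KO, 311 in E2KO and 684 in DKO. Fbn1, fibrillin, was higher by 0.73, but Efemp1 (-0.73) and Lum (-0.54) were below WT and Dcn, decorin, at 96.0 FPKM in WT and 94.1 in E1KO, hardly differed. Lumican and decorin, small proteoglycans that sit on collagen fibrils, were thus not above WT.

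Of 23 genes of the TGF-beta and PDGF pathways 19 were above WT. Ctgf, connective tissue growth factor, stood at 9.73 FPKM in WT, 28.2 in E1KO, 9.42 in E2KO and 5.88 in DKO. Tgfb1, the main fibrogenic ligand, stood at 5.80 FPKM in WT, 10.99 in E1KO, 6.41 in E2KO and 7.41 in DKO, and Pdgfrb, the receptor through which stellate cells are driven to divide, was higher by 0.68. Stellate cell and myofibroblast genes were above WT in 18 of 22 cases (median 0.33). Acta2, smooth muscle actin of activated stellate cells, stood at 37.6 FPKM in WT, 64.5 in E1KO, 31.4 in E2KO and 6.98 in DKO, and Des, desmin, at 6.70 in WT and 12.2 in E1KO. Reln, a marker of quiescent stellate cells, was lower, at 7.23 FPKM in WT and 3.76 in E1KO. Genes of mesothelial cells, which can also make Acta2 and collagen, were below WT in 5 of 5 cases, Msln by 0.61. Which cells the Acta2 and collagen RNA came from was not tested. E1KO was the highest of the 4 treated columns in 14 of 22 stellate cell genes, and their sum was 353 FPKM in WT, 502 in E1KO, 329 in E2KO and 280 in DKO.

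Endothelial genes were also above WT, in 16 of 18 cases with a median of 0.37, Cdh5 the most (0.77). Bile duct and progenitor genes were split, 4 of 8 above.

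Of the 101 lower genes 12 were on lists of hepatocyte function, which held 172 of the 10833 genes compared. Of 16 pericentral genes 14 were below WT, 4 of them 2-fold lower, with a median of -0.45, and of 32 xenobiotic P450 genes 25 were below, 7 of them 2-fold lower and 2 higher. Cyp2e1, the enzyme that activates CCl4, stood at 464 FPKM in WT, 151 in E1KO, 386 in E2KO and 3857 in DKO, against 5359 in WT at 2 months. E1KO was the lowest treated column and DKO the only one near the untreated level. Cyp2a5 stood at 75.7 FPKM in WT, 2.42 in E1KO, 31.2 in E2KO and 225 in DKO, the largest negative difference outside the small RNA genes. Its near-identical neighbour Cyp2a4 was at 3.36 and 2.08 FPKM in WT and E1KO, so both were below WT.

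Cyp7a1, the rate-limiting enzyme of bile acid synthesis, stood at 14.9 FPKM in WT, 3.38 in E1KO, 11.9 in E2KO and 38.5 in DKO. Cyp2c29, Cyp2c54, Cyp2c37, Rgn and Aldh1a1 were lower by 1.60, 1.55, 1.38, 1.08 and 1.06 respectively. Glul, confined to the last hepatocytes around the central vein, was already low in WT (28.1 FPKM, 275 at 2 months) and stood at 22.6 in E1KO. Cyp2b10, the standard target of the receptor CAR, and Cyp1a1, that of the Ah receptor, were the P450 genes 2-fold higher, at 93.1 against 39.5 and 7.85 against 2.89 FPKM. Pericentral genes were lowest in E1KO of the 4 treated columns in 13 of 16 cases, where 24.9% of all genes had E1KO lowest.

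**Figure D4:**
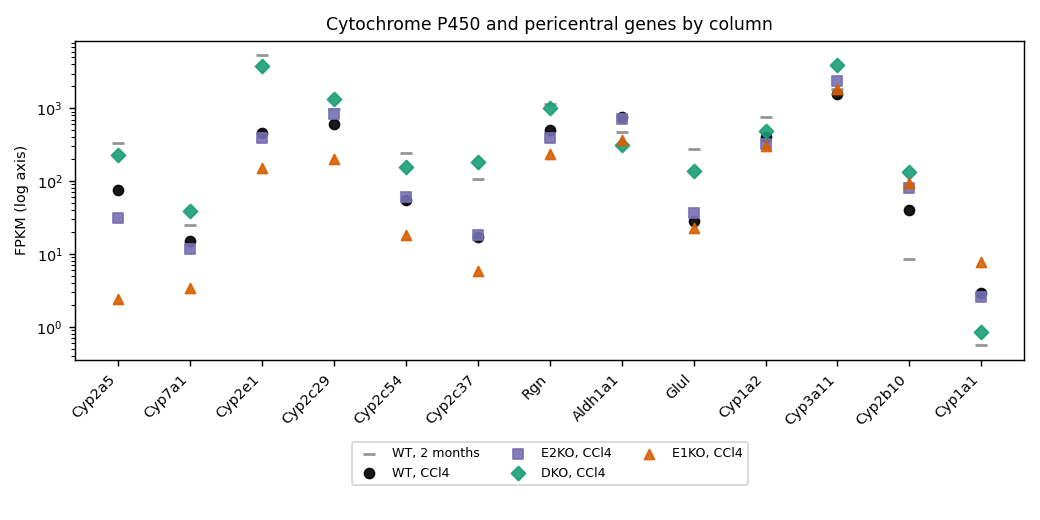
FPKM (log axis) of pericentral and other P450 genes in WT at 2 months (dash) and in the 4 genotypes with CCl4. Points are single columns; the orange E1KO triangles are lowest of the treated columns for Cyp2a5, Cyp7a1, Cyp2e1, Cyp2c29, Cyp2c54, Cyp2c37 and Rgn, and Cyp2b10 and Cyp1a1 lie above WT.

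Genes of fatty acid oxidation and uptake were below WT in 20 of 26 cases, with a median of -0.39. Fabp1, the fatty acid binding protein of liver, stood at 17532 FPKM in WT and 9925 in E1KO. Lpl, lipoprotein lipase, lay the other way, at 9.59 and 25.5 FPKM. Lipid synthesis genes were below WT in 17 of 26 cases (median -0.22) and bile acid genes in 12 of 20 (median -0.25), beside 57.6% of all genes. Car3, carbonic anhydrase of hepatocytes and fat, stood at 1139 FPKM in WT, 260 in E1KO, 854 in E2KO and 923 in DKO. Pck1, of gluconeogenesis, was higher, at 216 FPKM in WT and 597 in E1KO, while Thrsp, which promotes fat synthesis, was lower, at 353 and 145. Over 21 of the 30 genes listed for secreted hepatocyte proteins the sum was 24941 FPKM in WT and 23420 in E1KO, and none of the 21 passed 2-fold. Alb, Ttr and Apoa1 are among those not analysed here. Apoa4 was at 3149.5 and 1567 FPKM. Clock genes were below WT in 10 of 17 cases, near the 57.6% of all genes, with a median of -0.02. Nr1d1 differed by 1.11, Dbp by 0.87 and Bhlhe40 by -0.63, genes whose level depends on the hour of sacrifice, which the labels do not state.

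Mitotic genes were below WT in 34 of 35 cases, 22 of them by at least 1.5-fold (3.11% of all genes), none by 2-fold, with a median of -0.64. Birc5, survivin, stood at 93.6 FPKM in WT, 49.5 in E1KO, 54.3 in E2KO and 20.4 in DKO, against 0.66 in WT at 2 months. Mki67 stood at 9.83 FPKM in WT, 5.62 in E1KO, 5.60 in E2KO and 2.71 in DKO, Ube2c at 77.2, 40.4, 47.7 and 14.2, and Top2a at 19.6, 11.9, 14.1 and 6.07. WT was highest and DKO lowest, with E1KO and E2KO near each other between them. Measured against E2KO, 17 of 35 mitotic genes were below.

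Genes of replication and S phase were below WT in 25 of 33 cases with a median of -0.31, Rrm2, a ribonucleotide reductase subunit, the most (95.6 FPKM in WT, 34.7 in E1KO). Of the CDK inhibitor genes, Cdkn1a, Cdkn1b, Cdkn1c and Cdkn2c were all below WT, none of them by 2-fold. Cdkn2a, a Polycomb target, did not reach 1 FPKM in either column. None of the 39 Hox genes reached it either, and of 8 developmental transcription factor genes that did, 4 were above WT and none passed 2-fold. Fetal liver genes showed Afp at 31.3 FPKM in WT and 21.4 in E1KO, and Gpc3, at 32.3 FPKM in DKO, at 1.09 and 1.43.

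Set beside untreated livers, the E1KO differences with CCl4 were in part present and in part opposite. The untreated pair at 2 months shares no column with the treated pair. At 2 months E1KO was 2-fold higher in 132 genes (1.29%) and 2-fold lower in 137 (1.34%). Of 9733 genes compared in both pairs, 63 passed 2-fold in both, 34 with the same sign and 29 with the opposite sign. The 34 are 18.1% of the genes past 2-fold with CCl4 and 16.6% of those past it at 2 months. Small RNA genes made up 12 of the 34 and 21 of the 29.

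Antigen presentation was already above WT: the MHC class II median was 1.20 at 2 months, and H2-Aa stood at 16.8 FPKM in WT and 48.4 in E1KO. Fibrillar collagens were also above it, with a median of 0.51 and 9 of 9 genes (beside 45.8% of all genes), Col3a1 at 5.72 and 11.8 FPKM. Recruited cell genes had a median of 0.17 at 2 months, against 0.89 with CCl4, and Kupffer cell genes 0.43 against 0.87. At 8 months, in a column labelled E1KO that also holds muscle RNA, the medians were 0.10 for MHC class II, 0.18 for fibrillar collagens, 0.04 for recruited cell genes and -0.15 for Kupffer cell genes, of which 4 of 18 were above WT (beside 46.3% of all genes). Acute phase genes had a median of 0.09 there. Acute phase genes lay below WT at 2 months, with a median of -0.63 and 4 of 33 above. Saa2 stood at 2175 FPKM in WT and 54.3 in E1KO, Mt1 at 1825 and 222. At 2 months the WT column was the highest of the 4 genotypes for Saa2 and Lcn2, as the plot of FPKM by genotype shows.

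**Figure D5:**
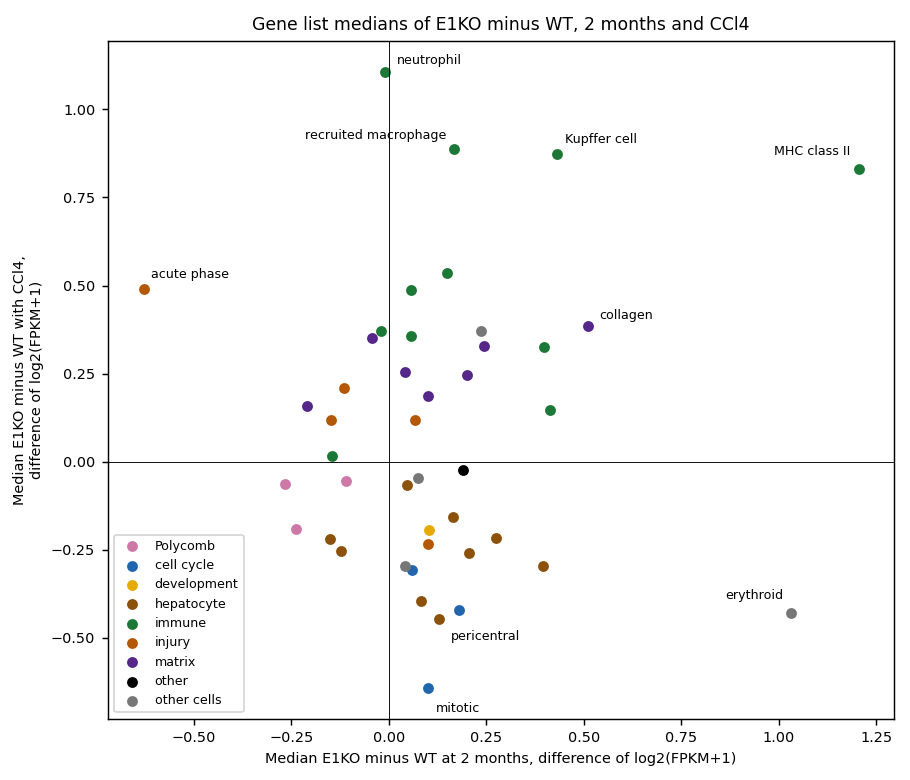
Median E1KO minus WT difference of each gene list at 2 months (horizontal) and with CCl4 (vertical), in log2(FPKM+1). Points are lists, coloured by category; macrophage, MHC class II and collagen lists are above WT in both, acute phase genes are above with CCl4 (0.49) and below at 2 months (-0.63), and mitotic genes are below with CCl4 (-0.64).

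Over the 3 conditions, 9 genes that are not small RNAs were 2-fold different from WT the same way with CCl4 and in both untreated groups, 8 of them lower, and these were named after their values were seen. At 8 months 1.57% of all genes were 2-fold higher and 1.23% lower. The column labelled E1KO at 8 months had Ezh1 at 0.88 FPKM, against 2.04 in WT, and skeletal muscle genes summing to 484 FPKM, against 1.25 to 2.01 in the others. Alad, of haem synthesis, stood at 331 FPKM in WT and 110 in E1KO with CCl4, and at 329 and 157 at 2 months. Asns, Accn5, Cd1d2, Gdpd3, Gm8580, Gm10653 and Gm11968 were the other lower ones. The 1 higher gene, AA465934, lies on chromosome 11, as does Ezh1, and stood at 1.00 FPKM in WT, 11.3 in E1KO, 0.63 in E2KO and 26.8 in DKO with CCl4. Both genotypes with the Ezh1 deletion were thus high for it. In a mixed background, the deleted allele and the strain of the DNA around it cannot be told apart for linked genes.

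Genes that respond to CCl4 did not all lie on 1 side of WT in E1KO. The response was taken from the E2KO columns, with CCl4 against 2 months, a step added after the values were seen. The treated WT and E1KO columns entered the choice only through the filter of 1 FPKM in either of them. That filter fixes the side of genes that passed it through 1 column, and these were not counted here. Of 1135 genes 2-fold higher with CCl4 in E2KO, 519 (45.7%) were above WT in E1KO, with a median of -0.06. Of 592 genes 2-fold lower, 277 (46.8%) were above WT. Within the 1135, immune list genes were above WT in 53 of 55 cases with a median of 0.89 and cell cycle genes in 8 of 62 with a median of -0.54. The immune and the cell cycle parts of the response thus lay on opposite sides of WT.

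A fit with limma over the 12 columns asked whether E1KO with CCl4 departs from the sum of a genotype and a condition effect. The spread in this fit is the departure of the other 11 columns from such a sum, with 5 residual degrees of freedom, not the spread between animals. No gene of 11394 passed a Benjamini-Hochberg adjusted p of 0.05 (lowest 0.9999). An unadjusted p under 0.05 was given to 496 of them, 329 above and 167 below. That is less than the share of 0.05 that would have it if no gene departed, so the 496 are not an excess. On simulated data the same fit called 75 of 100 genes changed by 2 on the log2 scale and 99 of 100 changed by 4. Both sets were in the same simulated table, and many changed genes make the adjusted threshold easier to pass. These shares thus do not carry over to data with few changed genes. It also called 13 genes that had not been changed, of 11290 in all. The changed genes were drawn only from those of higher mean level, and changes smaller than 2 were not simulated. Most differences reported here are smaller than that, so how often the fit would find them is not known. For no single gene, then, did this fit show the difference with CCl4 to go beyond those of the untreated E1KO livers. Whether any of the values above would recur in other animals was not tested.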

How the data were processed

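The authors deposited 1 table of FPKM values of 22520 genes in 12 groups, 1 column a group, to 2 decimals. Per the submitters' processing notes, the series used CASAVA, TopHat and Cufflinks on mouse assembly mm9, with BWA, SICER and HOMER beside them. The sources used here give neither their versions and roles nor how replicates were combined. Depth is unknown, so values have no counting interval. Columns summed to 531761 to 674119 FPKM. The 9 ChIP-seq samples are not analysed here.

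Values were used as log2(FPKM+1), with a pseudocount of 1, for genes that reached 1 FPKM in either column. The 49 gene lists were written from textbook markers and pathways, and several overlap. The comparison, the lists and the genes were chosen with earlier results of these data known. Genes named are Ezh1 and Ezh2, the 10 largest differences each way, the 3 largest of each injury, immune, matrix and cell cycle list, the largest of each other list, and a set chosen for role; some of these are not reported here. The fit used limma 3.58.1 in R 4.3.3 (eBayes with trend) on genes that reached 1 FPKM in 2 or more columns, and was tested on simulated data. Other steps used Python 3.11.15. Alternatives changed the pseudocount, filter, threshold, scaling and reference column.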

Additional observations from a re-analysis of the deposited data

Results flagged for a closer look

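Several differences between E1KO and WT had 1 direction with CCl4 and the other at 2 months. With 1 value per group the change of direction itself was not tested for a pair of columns, and the fit over 12 columns gave none of these genes an adjusted p under 0.05. Acute phase genes had a median of 0.49 with CCl4 and -0.63 at 2 months. Among them, Lcn2 differed by 2.32 with CCl4 and -2.70 at 2 months, Orm2 by 2.59 and -1.08, Saa1 by 1.12 and -3.39, Saa2 by 1.74 and -5.30, and Saa3 by 1.40 and -1.82. At 2 months WT held 2175 FPKM of Saa2, E1KO 54.3, E2KO 260.45 and DKO 80.2, so WT stood apart from the other 3 there. Erythroid genes had a median of -0.43 with CCl4 and 1.03 at 2 months, over 5 compared genes whose globin members share sequence. The remaining genes were hepatocyte genes that were lower with CCl4 and higher at 2 months. Cyp4a10, a fatty acid hydroxylase, differed by -1.05 and 2.71, Inmt, a methyltransferase, by -2.04 and 1.00, and Thrsp by -1.28 and 1.09.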

How the results depend on the processing

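No paired analysis was possible because each group has 1 column, which carries no replicate number. The counts of genes 2-fold higher and lower (149 and 101) depended most on low values. They were 323 and 131 with a pseudocount of 0.1, 71 and 65 with a pseudocount of 5, 93 and 63 with at least 1 FPKM in both columns, and 85 and 73 with a mean of at least 5 FPKM over the 12 columns. At 1.5-fold they were 519 and 337, at 3-fold 59 and 51, and without small RNA genes, chosen after the values were seen, 95 and 62. Scaling by median ratios gave 152 and 95 and by upper quartiles 146 and 99. With E2KO as the reference column they were 112 and 105. For the lists, the share of members on the same side of the reference changed by less than 1.5 times in 374 of 387 recalculations. With E2KO as the reference, the share below was 28% for NRF2 targets and 48.6% for mitotic genes, and the share above was 57.1% for MHC class II, 33.3% for MHC class I and 23.8% for complement genes. It turned also for erythroid (25% below) and female-biased genes (44.4% below). The share above was 50% for collagen processing genes with a mean of at least 5 FPKM. The share below was 37.5% for erythroid genes with no filter, and 44.4% for male-biased genes without genes that several lists hold, an alternative added after the values were seen. For 120 single genes, 539 of 600 recalculations kept both the side and the 2-fold call. In 58 the side or the call changed, 29 of them with E2KO as the reference, 16 with a pseudocount of 5 and 12 with one of 0.1. The other 3 were genes past 2-fold that turned against E2KO, Saa1 (-0.48), Saa2 (-0.29) and Gsta1 (0.46). The limma fit called 34 genes with no filter on low values, the milk genes Wap and Lalba among them, and 5 without the 4 columns at 8 months, all of small RNAs, and 0 otherwise. Past 2-fold with CCl4 and at 2 months, 12 genes had the same sign and 14 the opposite sign with at least 1 FPKM in all 4 columns. The cause of these changes was not tested.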

Other observations

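Milk protein genes, not active in liver, were detected in the treated livers and were highest in E1KO. The list of 8 genes was written after 5 of them (Csn1s1, Csn1s2a, Csn2, Wap and Glycam1) were seen among those 2-fold higher. Csn2, beta-casein, stood at 1.68 FPKM in WT, 7.61 in E1KO, 2.00 in E2KO and 1.71 in DKO with CCl4, and at 0.01 in WT and 0 in E1KO at 2 months. Wap, whey acidic protein, stood at 0.46, 2.49, 0.70 and 0.62 FPKM in the treated columns. Summed, the 8 genes were at 6.12 FPKM in WT, 25.2 in E1KO, 8.08 in E2KO and 6.74 in DKO with CCl4, at 0.83 to 8.60 in the 8-month columns and at no more than 0.30 at 2 months. E1KO was highest of the 4 treated columns for 8 of 8. What part the source of this RNA has in the other differences of the E1KO column was not tested.

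Among genes that no list held, S100a4, a calcium-binding protein of myeloid cells and fibroblasts, stood at 25.1 FPKM in WT and 63.2 in E1KO with CCl4. Pkm2, the pyruvate kinase of cells other than hepatocytes, stood at 36.5 and 84.2 FPKM, and Tmsb4x, an actin-binding peptide abundant in leukocytes, at 568 and 1146. Crybb3 was higher by 2.49 and Dnase1 by 2.22, the latter at 19.3 FPKM in DKO against 0.41 in WT. Calml4 was lower, at 2.50 FPKM in E1KO against 16.0 in WT and 84.5 in DKO.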
